A study of Mus musculus with 6 samples.

Results

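The centromere-proximal ends of the mouse autosomes were examined for H3K27me3 calls in germ cells with and without a functional Ezh2 gene. Members were all MACS2 peaks and all hiddenDomains bins that start between mm9 positions 3000000 and 15000000 of an autosome, chromosomes 4 and 10 excepted. This gave 12 Mb on each of 17 autosomes, 204 Mb in all, against 1929 Mb between position 15000000 and the last call of the same chromosomes. Within a chromosome the members were chosen by position, while the chromosomes were chosen with earlier results of these data known. The MACS2 lists held 2116 member peaks of 42363 in mutant 1 and 1549 of 32094 in mutant 2, against 1619 of 32271 in control 1 and 1597 of 31863 in control 2. The bin lists held 11987 member bins of 254302 in mutant 1 and 10669 of 223219 in mutant 2, against 12769 of 266948 in control 1 and 12971 of 271287 in control 2. Bins that touch were joined into 1379 and 1111 domains in the mutants and 1320 and 1296 domains in the controls. Merged over the 4 libraries, the members formed 2835 MACS2 regions of 54748 and 1862 hiddenDomains regions of 36868 in the whole series.

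H3K27me3 is the trimethylation of lysine 27 of histone H3, placed by Polycomb repressive complex 2 through either EZH2 or its paralog EZH1, and it is best known for silencing developmental genes at CpG-rich promoters. Mouse autosomes carry the centromere at their very first end, next to satellite repeats that are classically marked by methylation of lysine 9 of histone H3 and that the assembly leaves out. The proximal ends measured here are the assembled sequence that begins beyond those repeats.

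The study asked how the mark is distributed in male germ cells that lack EZH2. Mutants were 6-week-old mice of genotype MvhCre;Ezh2fl/fl (2 ChIP libraries), and controls were 6-week-old mice of genotype MvhCre;Ezh2fl/+ (2 ChIP libraries), both on a mixed background. All animals carried the Cre, driven by the germ cell gene Mvh, and controls kept 1 functional Ezh2 allele. Spermatogenic cells were enriched from whole testes, with a purity given in the labels as 90%, and the precipitating antibody was ab6002 from Abcam. The loss of EZH2 and the makeup of the cell mixture cannot be read from these lists. Fewer marked cells and less mark per cell cannot be told apart either. Nothing in the labels says that libraries came from separate animals, so each p-value measures only the spread between these libraries.

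Across the series, mutant 1 had the longest peak list and the lists of the other 3 libraries were close in length. Read depth was unknown and the lists hold calls, not signal, so a difference in coverage is a difference in called length. A deeper library yields more calls at the same threshold. Exact permutation tests of 2 libraries against 2 cannot give p below 0.33, and exact sign-flip tests over 4 libraries cannot give p below 0.13.

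The first comparison set the proximal ends against the rest of the same chromosomes. In every library the proximal ends were covered a little over 50% as densely as the rest, and this held for both callers. Coverage was highest in the last 12 Mb of the chromosomes. By MACS2 the proximal ends held 18.4 and 14.5 kb of peaks per Mb in the mutants and 15.6 and 16.0 kb per Mb in the controls. The rest of the same chromosomes held 34.9 and 27.5 kb per Mb in the mutants and 28.7 and 29.8 kb per Mb in the controls. No library had a denser proximal part than rest, and the 2 ranges over libraries did not overlap. Proximal density was thus 52.7% and 52.7% of the rest in the mutants and 54.5% and 53.7% in the controls. The log2 ratio of proximal over rest averaged -0.90 ± 0.0234 (SD, n = 4 libraries; exact sign-flip permutation test, two-sided, p = 0.13, the smallest it can give).

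The hiddenDomains bins, from a caller made for broad marks, gave nearly the same ratio at a lower density. Proximal ends held 11.8 and 10.5 kb of bins per Mb in the mutants and 12.5 and 12.7 kb per Mb in the controls. The rest held 21.6 and 19.03 kb per Mb in the mutants and 22.7 and 23.1 kb per Mb in the controls. The ratio was 54.4% and 54.96% in the mutants and 55.04% and 54.95% in the controls, a mean log2 ratio of -0.87 ± 0.00781 (SD, n = 4 libraries; exact sign-flip permutation test, two-sided, p = 0.13). The callers overlapped closely within the proximal ends: between 95.4% and 96.1% of the binned length of a library lay inside its own peaks. In the other direction, 60.9% and 69.4% of peak length lay in bins in the mutants, against 76.4% and 76.2% in the controls.

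**Figure D1:**
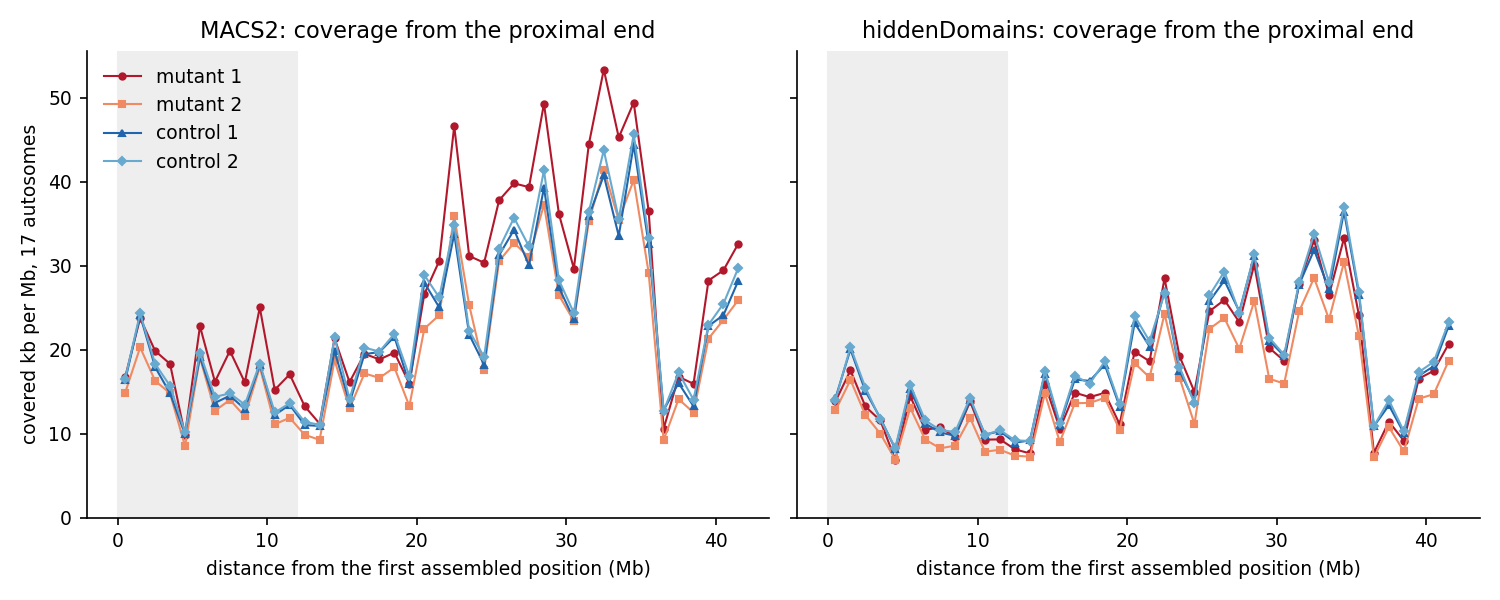
Covered kb per Mb over the 17 autosomes in 1-Mb steps, by distance from the first assembled position in Mb, for MACS2 peaks (left) and hiddenDomains bins (right), 1 line per library; the grey band marks the 12 Mb of the proximal ends. Within the band the MACS2 lines lie between 8.56 and 25.0 kb per Mb, and further along the chromosomes mutant 1 reaches 53.4 kb per Mb.

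Density varied along the proximal ends themselves. By MACS2 the second Mb was the densest in the mean over libraries, at 23.8 and 20.3 kb per Mb in the mutants and 24.1 and 24.4 kb per Mb in the controls. The fifth Mb was the sparsest, at 9.86 and 8.56 kb per Mb in the mutants and 9.96 and 10.2 kb per Mb in the controls. By MACS2 the 4 libraries went up or down together at each step within the proximal ends, which the bins did not do at every step. The central parts of the chromosomes, without the last 12 Mb, held 32.2 and 25.5 kb per Mb in the mutants and 26.6 and 27.7 kb per Mb in the controls. The last 12 Mb held 57.9 and 44.5 kb per Mb in the mutants and 46.1 and 47.9 kb per Mb in the controls. No merged region lay across position 15000000. The 100 kb just inside that limit held 7.28 and 5.26 kb per Mb in the mutants and 6.11 and 6.09 kb per Mb in the controls. The 100 kb just outside it held 17.3 and 11.98 kb per Mb in the mutants and 12.6 and 11.5 kb per Mb in the controls.

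Calls were also spaced further apart. Between MACS2 regions called in all 4 libraries the median gap was 73.3 kb in the proximal ends and 36.0 kb in the rest. Of the 980 proximal gaps, 92 (9.39%) were longer than 500 kb, against 4.51% of gaps in the rest. The single longest gap lay in the rest, at 7734 kb, against 5319 kb in the proximal ends. Of the 204 proximal 1-Mb blocks, 4 (1.96%) had no MACS2 peak and 11 (5.39%) no bin in any library. Over all 2568 blocks of the series these shares were 5.61% and 8.22%. Wholly empty blocks thus made up a smaller share of the proximal ends than of the series. The 2568 blocks span every chromosome with calls, not the autosomes alone, and include the proximal ends. The median proximal block held 10.7 kb of peaks, against 16.0 kb over all blocks of the series.

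Single chromosomes departed widely from the mean. On 15 of the 17 autosomes the proximal end was sparser than the rest in all 4 libraries, by either caller, and the exceptions were chromosomes 8 and 19. On 8 autosomes by MACS2, and on 7 by hiddenDomains, the ratio stayed under 50% in all 4 libraries. The sparsest proximal end by MACS2 was that of chromosome 14, with 7.07 and 5.76 kb of peaks per Mb in the mutants and 7.05 and 6.26 kb per Mb in the controls. Chromosome 9 followed with 8.26 and 6.06 kb per Mb in the mutants and 6.42 and 6.78 kb per Mb in the controls. By bins chromosome 9 was the sparsest, with a mean of 4.71 kb per Mb against 5.5 on chromosome 14. Chromosome 13 had 7.65 and 6.58 kb per Mb in the mutants and 8.41 and 8.53 kb per Mb in the controls. Mutant and control libraries overlapped on chromosomes 14 and 9, while on chromosome 13 both mutants lay below both controls. The ranges over libraries of these 3 ends overlapped each other. Relative to the rest of its own chromosome, the end of chromosome 9 had the lowest mean density, at 0.214 times the rest, and chromosome 5 was close, at 0.222 times.

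Chromosome 19 had the densest proximal end, with 42.5 and 36.8 kb of peaks per Mb in the mutants and 36.8 and 37.6 kb per Mb in the controls, 0.982 times the rest in the mean. Chromosome 8 came next, with 48.9 and 30.3 kb per Mb in the mutants and 28.9 and 29.1 kb per Mb in the controls, 1.06 times the rest. The rest was exceeded there in both mutants and in neither control by MACS2. By hiddenDomains the mean of chromosome 8 was 0.883 times the rest, and mutant 1 alone lay above it. On chromosome 19 both mutants lay above and both controls below the density of the rest, by either caller. The end of chromosome 17 was the third densest, with 26.8 and 19.8 kb per Mb in the mutants and 20.9 and 21.8 kb per Mb in the controls. Mutant 1 was the highest library on all 3 of these chromosomes. Chromosomes 4 and 10 are not members. The same 12 Mb held 15.6 and 13.1 kb per Mb in the mutants and 14.6 and 14.9 kb per Mb in the controls on chromosome 4, against 15.7 and 14.6 kb per Mb in the mutants and 18.3 and 18.6 kb per Mb in the controls on chromosome 10.

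**Figure D2:**
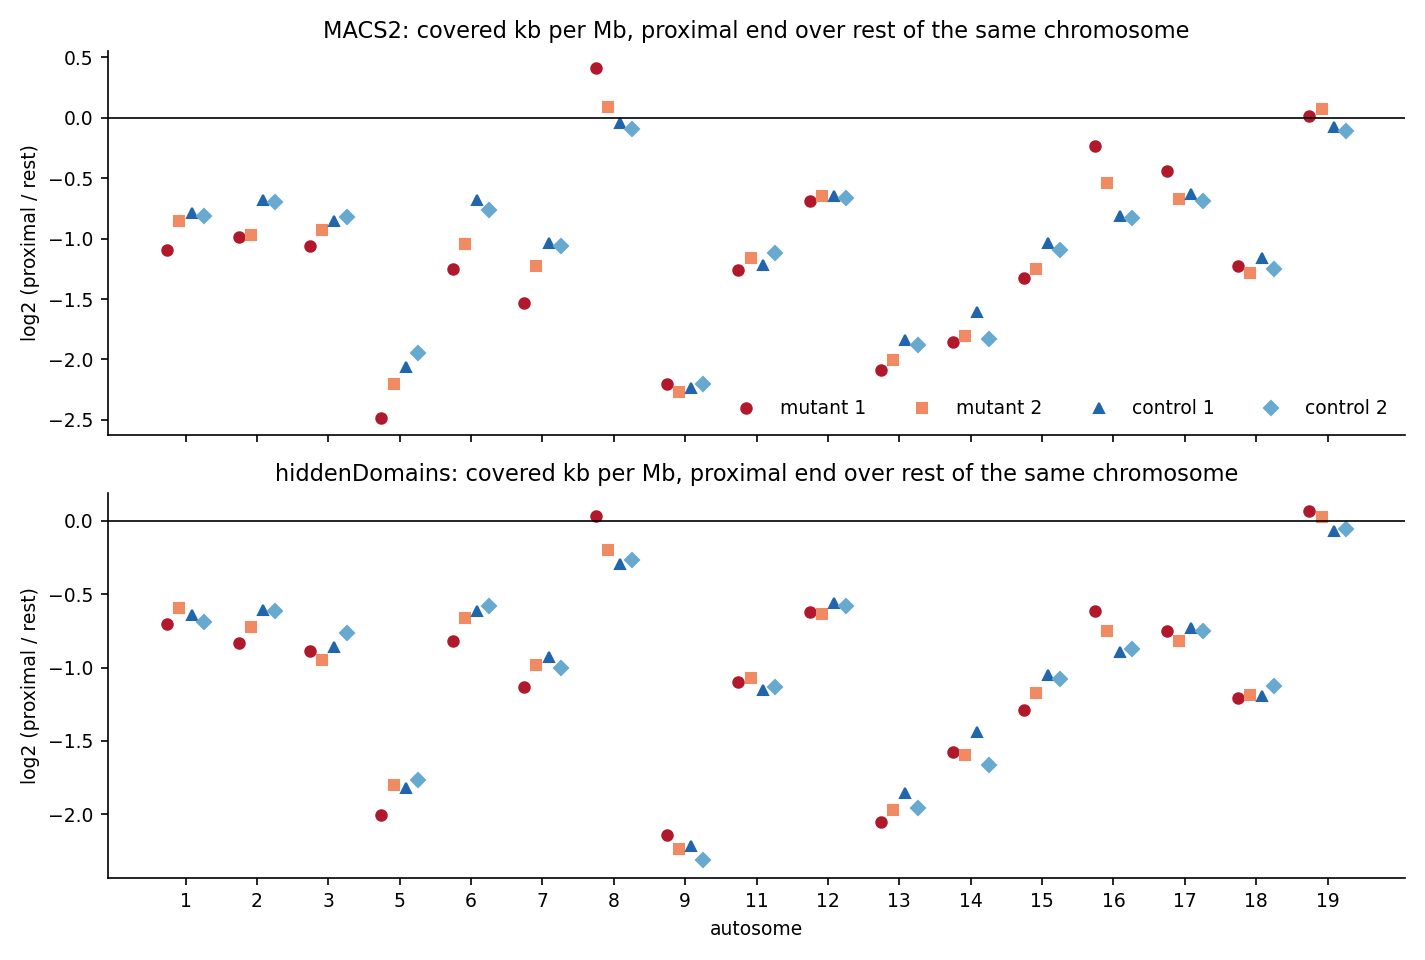
Log2 ratio of covered kb per Mb, proximal end over the rest of the same chromosome, for each of the 17 autosomes (horizontal axis) and each library (symbols), by MACS2 (top) and hiddenDomains (bottom); the line marks equal density. Points lie below the line in all 4 libraries on 15 autosomes, and chromosomes 8 and 19 lie near it, with both mutants of chromosome 8 above the line by MACS2.

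The second comparison set mutants against controls within the proximal ends. Covered length gave opposite signs for the 2 callers. MACS2 coverage averaged 16.5 ± 2.78 kb per Mb in the mutants and 15.8 ± 0.269 kb per Mb in the controls (SD, n = 2 each), a difference of 0.637 kb per Mb, below the SD of the mutants (exact permutation test, two-sided, p = 1). Bin coverage averaged 11.1 ± 0.914 kb per Mb in the mutants and 12.6 ± 0.140 kb per Mb in the controls, a difference of -1.51 kb per Mb (-11.98%; exact permutation test, two-sided, p = 0.33). Both mutants lay below both controls by bins. The rest of the chromosomes had a bin difference of similar size, -11.4%. The mutant minus control difference in the log2 ratio of proximal over rest was -0.04 by MACS2 (exact permutation test, two-sided, p = 0.33) and -0.01 by hiddenDomains (exact permutation test, two-sided, p = 0.667). Without mutant 1 the MACS2 difference in density was -1.33 kb per Mb, and without mutant 2 it was 2.60 kb per Mb.

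Taken by chromosome, the bins were lower in both mutants than in both controls at 13 of 17 proximal ends and higher at 0, against 16 lower and 0 higher in the rest of those chromosomes. By MACS2 the counts were 6 lower and 2 higher at the proximal ends, and 0 lower and 0 higher in the rest. The 3 ends with the lowest mutant over control log2 ratio of MACS2 coverage were those of chromosomes 5, 6 and 13, at -0.27, -0.25 and -0.25. Chromosome 5 had 8.33 and 7.86 kb per Mb in the mutants and 9.16 and 10.4 kb per Mb in the controls. Chromosome 6 had 12.7 and 11.2 kb per Mb in the mutants and 14.4 and 14.0 kb per Mb in the controls. On chromosomes 5, 6 and 13 both mutants lay below both controls by either caller. The 3 ends with the highest ratio were those of chromosomes 8, 16 and 11, at 0.45, 0.43 and 0.14. Chromosome 16 had 22.1 and 13.8 kb per Mb in the mutants and 13.0 and 13.7 kb per Mb in the controls, so that mutant 2 was level with the controls. Chromosome 11 had 23.8 and 20.3 kb per Mb in the mutants and 18.96 and 21.1 kb per Mb in the controls, while the groups overlapped. By bins the corresponding log2 ratios were 0.02 on chromosome 8, -0.07 on chromosome 16 and -0.05 on chromosome 11.

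Among the 204 proximal 1-Mb blocks, 79 (38.7%) had less peak coverage in both mutants than in both controls, against 33.6% of all 2568 blocks, and 28 (13.7%) had more, against 16.0%. By bins 115 blocks (56.4%) were lower, against 56.2%, and 9 (4.41%) were higher, against 4.17%. The bin shares were close to those of the whole series in both directions.

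The end of chromosome 8 had the highest mutant over control log2 ratio of MACS2 coverage, 0.45, with chromosome 16 close behind at 0.43. The mutant minus control difference in the log2 ratio of proximal over rest was larger on chromosome 16 by MACS2. It was 0.43 there, against 0.32 on chromosome 8, and by bins these chromosomes were nearly equal. On chromosome 8 the first 7 Mb, from 3 to 10 Mb, held 15.2 and 11.5 kb of peaks per Mb in the mutants. The controls held 14.9 and 15.4 kb per Mb there. Its last 5 Mb, from 10 to 15 Mb, held 96.0 and 56.6 kb per Mb in the mutants and 48.6 and 48.4 kb per Mb in the controls. Mutant 1 was 1.98 times and mutant 2 was 1.17 times the control mean there. The bins of the same 5 Mb covered 39.8 and 28.5 kb per Mb in the mutants and 29.0 and 29.8 kb per Mb in the controls, so that mutant 2 was 0.970 times the control mean by this caller. In covered length the excess over these 5 Mb was therefore large in mutant 1, small in mutant 2 by MACS2, and not seen in mutant 2 by bins. Mutant 2 had fewer bins elsewhere too, with 0.724 times the control mean in the first 7 Mb. Relative to that stretch, its bins were thus also higher in the last 5 Mb. The densest block, chr8:12000001-13000000, was also the densest proximal block of any chromosome. It held 185 and 115 kb of peaks in the mutants and 95.8 and 91.5 kb in the controls. Its bins covered 82.8 and 61 kb in the mutants and 58.8 and 58.6 kb in the controls. Mutant 1 also had the longest peak list of the series, and the part of that in its excess was not tested. Leaving out chromosome 8, the mutant minus control difference in the log2 ratio of proximal over rest became -0.09 by MACS2 and -0.03 by hiddenDomains. Both had exact permutation p = 0.33. This ratio was not computed without chromosome 16.

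**Figure D3:**
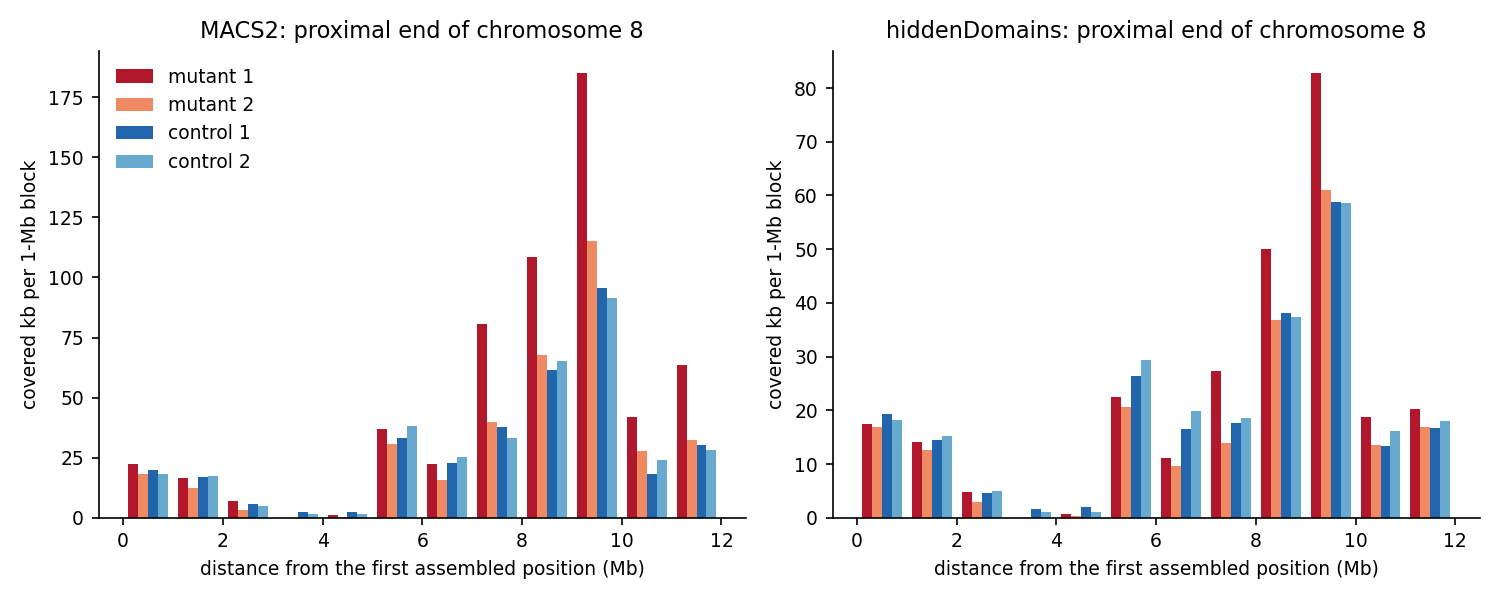
Covered kb in each 1-Mb block of the proximal end of chromosome 8, by distance from the first assembled position in Mb, for MACS2 peaks (left) and hiddenDomains bins (right); bars are single libraries, with different vertical scales in the 2 panels. The tallest block reaches 185 and 115 kb of peaks in the mutants and 95.8 and 91.5 kb in the controls, while blocks in the first 5 Mb stay below 25 kb in all libraries.

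The other dense proximal blocks were covered in all 4 libraries. On chromosome 17, chr17:8000001-9000000 held 130 and 97.4 kb of peaks in the mutants and 93.9 and 98.4 kb in the controls. On chromosome 19, chr19:6000001-7000000 held 118 and 95.4 kb in the mutants and 83.9 and 88.0 kb in the controls. Its neighbour, chr19:5000001-6000000, held 79.4 and 80.5 kb in the mutants and 83.8 and 87.8 kb in the controls. By peaks both mutants lay above both controls in the first of these neighbouring blocks and below them in the second. By bins the first held 75.8 and 60.4 kb in the mutants and 62.4 and 63 kb in the controls, so that mutant 2 lay below both controls there.

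Peak width was the third measure. Both mutants had a lower median proximal width than both controls by MACS2, and the rest of the chromosomes differed by a similar amount, -246 bp. With each list cut to the same number of widest peaks, the proximal difference was -24.8 bp and the genotypes overlapped (exact permutation test, two-sided, p = 1). The cut removes the narrowest peaks, mainly from the longer list of mutant 1, so the median of mutant 1 rises by construction. Without mutant 1 and without the cut, the difference was -193.5 bp. Median width in the proximal ends was 1156 and 1254 bp in the mutants and 1416 and 1479 bp in the controls. The mutant mean of 1205 ± 69.7 bp and the control mean of 1448 ± 44.5 bp gave a difference of -243 bp (SD, n = 2 each; exact permutation test, two-sided, p = 0.33, the smallest it can give). In the rest the medians were 1233 and 1309 bp in the mutants and 1479 and 1556 bp in the controls. The proximal median was thus below the rest in each library, by 68 bp in the mean (exact sign-flip permutation test over 4 libraries, two-sided, p = 0.13). Between 3 and 10 Mb the sign turned, and the proximal median was 31 bp above the rest. By hiddenDomains, whose widths move in steps of 200 bp, the proximal median equalled that of the rest in 3 libraries and was lower in control 1.

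Narrow calls made up more of the proximal lists and broad calls less. Peaks under 1 kb were 43.5% and 40.1% of the proximal peaks in the mutants and 36.3% and 33.5% in the controls. In the rest they were 41.0% and 38.9% in the mutants and 35.1% and 32.6% in the controls. Peaks of 5 to 20 kb were 4.87% and 5.49% in the mutants and 5.19% and 5.57% in the controls, against 6.13% and 6.41% in the mutants and 6.74% and 7.45% in the controls in the rest. Peaks over 20 kb numbered 3 and 2 in the mutants and 2 and 3 in the controls. There were 10.4 and 7.59 proximal peaks per Mb in the mutants and 7.94 and 7.83 in the controls. In the rest there were 18.1 and 13.6 per Mb in the mutants and 13.6 and 13.5 in the controls, so the proximal ends had fewer calls per Mb in each library.

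The widest proximal regions called in all 4 libraries had similar extents in both genotypes. The widest, chr6:6795919-6833979, was covered over 38.0 and 34.7 kb in the mutants and 35.2 and 35.4 kb in the controls, and it ranked 9 by width among the 19923 shared regions of the series. The next, chr2:9787962-9822479, was covered over 33.2 and 33.8 kb in the mutants and 31.3 and 30.8 kb in the controls, and ranked 15. The region chr8:12380951-12404931 lay inside the densest block of chromosome 8 and had 23.5 and 23.7 kb in the mutants and 23.4 and 22.6 kb in the controls. On chromosome 12, chr12:9574802-9592592 had 15.4 and 15.5 kb in the mutants and 17.5 and 15.9 kb in the controls. On chromosome 14, chr14:13166933-13184620 had 17.7 and 14.7 kb in the mutants and 16.3 and 16.3 kb in the controls. Of these 5, the regions on chromosomes 2 and 8 had both mutants above both controls, that on chromosome 12 had both mutants below, and the other 2 overlapped. No gene is named at these positions, because no annotation of mm9 was used here.

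The first shared call of each chromosome marked where the list begins. By MACS2 the distance from position 3000000 to the first region called in all 4 libraries had a median of 357 kb over the 17 autosomes. It was shortest on chromosome 2, at 34.9 kb, where chr2:3034867-3038058 was covered over 2.68 and 2.40 kb in the mutants and 2.60 and 3.19 kb in the controls. The longest distance was on chromosome 14, at 1121 kb, where chr14:4121384-4122413 was covered over 1.02 and 1.01 kb in the mutants and 1.02 and 1.01 kb in the controls. The first 100 kb of all 17 ends together held 3 and 3 MACS2 peaks in the mutants and 3 and 4 in the controls. The bins of the same 100 kb formed 31 and 23 domains in the mutants and 14 and 8 in the controls, of 15.4 and 9.2 kb in the mutants and 6.8 and 6 kb in the controls. Chromosome 11 alone held 11.4 and 5.6 kb of these in the mutants and 2 and 0.8 kb in the controls, where MACS2 called 0 peaks in any library. On the other 16 chromosomes the bins were 4 and 3.6 kb in the mutants and 4.8 and 5.2 kb in the controls.

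Genotype-specific calls were the fourth comparison. Few proximal regions were specific to a genotype, as in the whole series, and many were called in a single library only. Shared calls, present in each of the 4 libraries, made up 997 (35.2%) of the 2835 MACS2 regions, against 36.4% in the whole series. Another 132 (4.66%) were called in both mutants and neither control, against 5.97% of regions in the whole series. Control-only regions, called in both controls and neither mutant, numbered 138 (4.87%), against 4.90%. By hiddenDomains 49 of 1862 regions (2.63%) were mutant-only, against 2.80%, and 125 (6.71%) were control-only, against 7.53%. Each of these shares was near or below that of the whole series. The rule rests on every library: control-only MACS2 regions numbered 236 without mutant 1, 308 without control 1 and 318 without control 2, and mutant-only regions numbered 353 without mutant 1 and 770 without mutant 2.

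The balance between the kinds of specific region depended on the caller and on chromosome 8. Control-only regions were 51.1% of the genotype-specific MACS2 regions in the proximal ends and 44.3% in the rest. By bins they were 71.8% in the proximal ends and 73.2% in the rest, the opposite order. Chromosome 8 held 36 of the 132 mutant-only MACS2 regions, 7.83% of its 460 proximal regions. Chromosome 16 held 19, 7.20% of its 264, against 5.97% of regions in the whole series. Control-only regions numbered 8 (1.74%) and 5 (1.89%) there, against 4.90%. By bins chromosome 8 had 11 mutant-only (5.05%) and 8 control-only regions (3.67%), and chromosome 16 had 4 (3.10%) and 5 (3.88%). The bin shares of the whole series were 2.80% mutant-only and 7.53% control-only. Of 78 MACS2 regions on chromosome 6, 0 were mutant-only and 11 (14.1%) control-only. Chromosome 13 held 2 (1.79%) and 11 (9.82%) of 112, and chromosome 3 held 1 (1.02%) and 9 (9.18%) of 98. Without chromosomes 8 and 16, 77 mutant-only and 125 control-only MACS2 regions remained, a control-only share of 61.9%. By bins 34 and 112 remained, a share of 76.7%, which lay above the 73.2% of the rest. These chromosomes were picked for their mutant-only MACS2 regions, so the rise by MACS2 follows from that choice. The rest was not counted without them.

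Counted per library, the share of peaks that overlapped the other library of the same genotype and no library of the other genotype was 6.57% and 10.1% in the mutants and 8.71% and 8.83% in the controls. In the rest it was 8.52% and 12.8% in the mutants and 8.79% and 8.73% in the controls. The proximal minus rest difference averaged -2.32 percentage points in the mutants and 0.00622 in the controls (exact permutation test of the difference, two-sided, p = 0.33). By bins the shares were 3.99% and 5.67% in the mutants and 10.7% and 11.03% in the controls, and in the rest 4.09% and 5.85% in the mutants and 12.1% and 11.9% in the controls. In bins each library's proximal share was the lower. Peaks called in a single library and in no other made up 29.8% and 12.7% of the proximal peaks in the mutants and 10.9% and 10.5% in the controls. Such peaks made up 27.7% and 11.04% in the mutants and 9.05% and 9.43% in the controls in the rest. Mutant 1 therefore held the largest share of peaks without a counterpart in the rest as well as in the proximal ends.

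**Figure D4:**
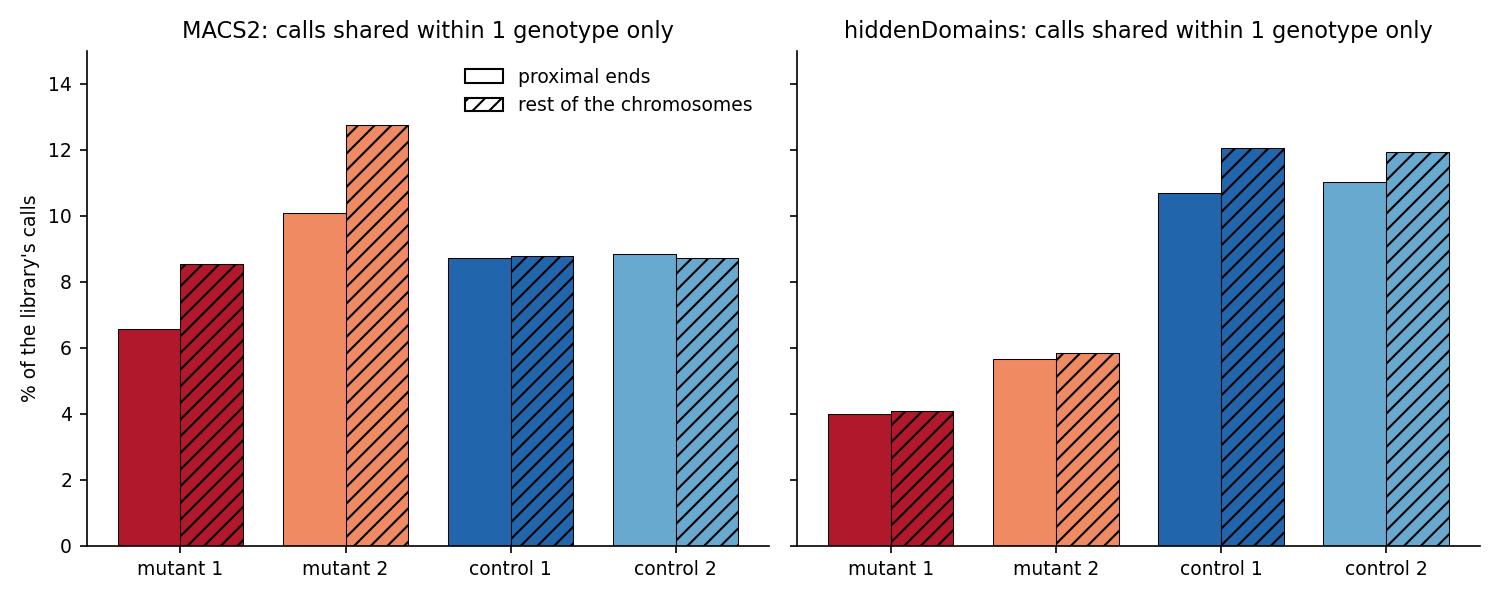
Percentage of each library's calls that overlap the other library of its genotype and neither library of the other genotype, for MACS2 peaks (left) and joined hiddenDomains bins (right), in the proximal ends (plain bars) and the rest of the chromosomes (hatched bars). By MACS2 the proximal bars reach 6.57% and 10.1% in the mutants and 8.71% and 8.83% in the controls, and by bins both mutants lie below both controls.

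Genotype-specific regions were short, in the proximal ends as in the rest. Their median proximal width was 1373 bp for mutant-only and 950 bp for control-only MACS2 regions, while regions shared by the 4 libraries had a median of 2728 bp. In the rest these medians were 1326, 1048 and 2964 bp. Shared regions merge calls of 4 libraries and specific regions those of 2, so part of this gap follows from the construction. The widest mutant-only region, chr12:8868311-8871729, was covered over 3.42 and 1.64 kb in the mutants and 0 and 0 kb in the controls, and held no bin in any library. In second place chr14:8685403-8688738 had 3.34 and 1.81 kb of peaks in the mutants, and the only bins there were 0.2 kb in mutant 1. The other 3 of the widest 5 were chr8:12928868-12932154, chr17:12605421-12608675 and chr8:11076993-11080128, each between 3.14 and 3.29 kb wide and with at most 0.2 kb of bins in any library. In each of these 5 regions the mutants differed from each other, with 0.253 to 1.81 kb in the library that covered less.

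The widest control-only region, chr19:4200391-4203066, was covered over 0 and 0 kb in the mutants and 2.13 and 2.68 kb in the controls, with bins in control 2 only. The next, chr19:6943783-6946298, had 0 and 0 kb in the mutants and 2.15 and 2.18 kb in the controls, with no bins in the mutants and 1.5 and 1.2 kb of bins in the controls. On chromosome 7, chr7:5409535-5411654 had no bins in the mutants and 1.4 and 0.4 kb of bins in the controls. The other 2 of the widest 5, chr13:4655570-4657846 and chr6:3622121-3624250, had bins in 1 control library each. Over all proximal regions, the bins had the same genotype pattern at 5 of the 132 mutant-only MACS2 regions (3.79%) and at 43 of the 138 control-only regions (31.2%). In the rest of the chromosomes these shares were 6.41% and 33.3%.

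Retention was then followed by width, on regions merged from the libraries of a single genotype and called in both of them. Of 1235 such mutant regions, 1001 (81.1%) were called in both controls, against 77.4% in the rest of the chromosomes. Of 1280 control regions, 997 (77.9%) were called in both mutants, against 78.5% in the rest. Width went with retention: among control regions, both mutants had a call at 32% of those under 1 kb, at 83.8% between 1 and 5 kb, at 98% between 5 and 20 kb and at all 3 over 20 kb. Among mutant regions, both controls had a call at 62.9% of those under 1 kb, at 81.9% between 1 and 5 kb, at 99.2% between 5 and 20 kb and at all 3 over 20 kb. No proximal region of 5 kb or more that both libraries of a genotype called was missing from both libraries of the other. Such losses were also rare in the rest, with 14 of 2471 mutant regions (0.567%) and 2 of 2285 control regions (0.0875%) of 5 to 20 kb. Control regions of the rest were called in both mutants at 33.3% under 1 kb, 83.0% between 1 and 5 kb and 99.8% between 5 and 20 kb. As 1 bp of overlap counts, a wider region meets a call more readily.

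Overlap of called length was highest between the controls. The Jaccard index, the length called in both of 2 libraries over the length called in either, was 0.586 between the mutants and 0.709 between the controls by MACS2. Between genotypes it ran from 0.551 to 0.618, so that mutant 2 was closer to each control than to mutant 1. By bins the index was 0.746 between the mutants and 0.801 between the controls, and from 0.679 to 0.712 between genotypes. The rest of the chromosomes gave 0.592 between the mutants, 0.704 between the controls and 0.546 to 0.606 between genotypes by MACS2.

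The last comparison tested bin coverage in 100-kb windows with limma on log2(kb covered + 1), a scale that understates changes in sparse windows. Of the 9183 windows of the series with a mean of at least 1 kb, 557 were proximal. No proximal window passed an adjusted p of 0.05 (limma, Benjamini-Hochberg over all windows), and neither did any other window of the series. Adjusted p values began at 0.0559 in the proximal ends and over all windows. With no adjustment and a limma p under 0.05, 126 proximal windows (22.6%) were lower in the mutants, against 27.6% of all windows, and 11 (1.97%) were higher, against 2.48%. The median log2 difference was -0.12 over the proximal windows and -0.15 over all windows. The same limma fit on MACS2 peaks gave 0 adjusted calls in the proximal ends and over all windows. At the unadjusted threshold 64 of 670 proximal windows (9.55%) were lower and 45 (6.72%) higher, against 12.2% and 8.95% of all windows. With bins, the median log2 difference over the proximal windows was -0.17 without mutant 1 and -0.11 without mutant 2. Over all windows it was -0.20 and -0.13.

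The window of lowest p, chr6:10900001-11000000, held 0.4 and 0.4 kb of bins in the mutants and 2.4 and 2.2 kb in the controls (log2 difference -1.24, SE 0.0774, limma adjusted p = 0.0559). Next came chr2:10700001-10800000, with 2.4 and 2.2 kb in the mutants and 4.6 and 4.6 kb in the controls. The window chr19:5300001-5400000 had 2.4 and 2.4 kb in the mutants and 4.6 and 5 kb in the controls. All 3 had less coverage in both mutants, and their limma log2 differences in MACS2 coverage were also negative, between -0.78 and -0.72, with adjusted p between 0.169 and 0.2002.

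In the other direction, chr8:12900001-13000000 held 6.2 and 5 kb of bins in the mutants and 2 and 2.4 kb in the controls (log2 difference 1.04, SE 0.135, limma adjusted p = 0.0722). It held 28.8 and 9.79 kb of peaks in the mutants and 5.95 and 9.07 kb in the controls. The window chr11:3400001-3500000 had 18 and 18 kb of bins in the mutants and 14.6 and 15.2 kb in the controls, whereas its peak coverage overlapped between genotypes. The window chr19:6500001-6600000 had 18 and 15.8 kb of bins in the mutants and 12 and 12 kb in the controls, and its peak coverage was also higher in both mutants.

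Since the mutants had less bin coverage in all, the windows were also fitted after setting the total of each library equal. With equal totals 50 proximal windows (9.07%) were lower, against 14.1% of all windows, and 40 (7.26%) were higher, against 9.01%, at an unadjusted limma p under 0.05. The median log2 difference was 0.01 over the proximal windows and -0.01 over all windows. At an adjusted limma p under 0.05, 9 of 551 proximal windows (1.63%) fell, against 3.74% of all 9094 windows, and 8 (1.45%) rose, against 1.90%. Of the 8 that rose, 5 lay on chromosome 8, at starts from 11700001 to 14300001, and 1 each on chromosomes 11, 17 and 19. The first was chr8:12900001-13000000 (log2 difference 1.18, SE 0.122, adjusted p = 0.0238 by limma). The window at the very start of chromosome 11, chr11:3000001-3100000, rose by 2.08 (SE 0.315, adjusted p = 0.0271 by limma) on 11.4 and 5.6 kb of bins in the mutants against 2 and 0.8 kb in the controls, with 0 peaks in all 4 libraries. This window borders the unassembled repeats, and whether its reads come from repeats was not tested. Those that fell lay on chromosomes 2, 6, 12, 15, 18 and 19. The first of them, chr18:13100001-13200000, held 2.6 and 2.2 kb in the mutants and 5.6 and 6.4 kb in the controls (log2 difference -0.91, SE 0.116, adjusted p = 0.0240 by limma).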

How the data were processed

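H3K27me3 ChIP-seq calls of 2 mutant and 2 control libraries were compared; the 2 input samples were not analysed here. For each library the authors deposited a MACS2 peak list, per the file headers, with positions and no height, and a list of 200-bp hiddenDomains bins, per the file names. The deposited bins carry a display score with 4 values up to 1000, whose meaning the sources used here do not give. Bowtie, SAMtools, bedtools and mm9 are named in the submitters' processing notes; versions, thresholds, control tracks and read depth: not given in the sources used here. MACS2 file names pair each library with its genotype, so control tracks may differ between genotypes.

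Touching calls were joined, coverage was summed in base pairs, and regions were merged over libraries where calls shared at least 1 bp or touched. Calls were assigned by start. Exact permutation tests took libraries as units (SciPy 1.17.1), and limma 3.58.1 (R 4.3.3, empirical Bayes with a trend) took 100-kb windows of the whole series. Calculations were tested on simulated data. Members, lists and naming rules were chosen with earlier results of these data known. Named are the 5 widest shared, mutant-only and control-only regions, 3 windows per direction by lowest p, the 3 densest and sparsest ends, the 3 ends with the highest and lowest mutant over control ratio, and the extreme first calls. Other blocks, windows and chromosomes named were chosen after their values were seen. No genome or annotation of mm9 was used here, so no sequence is printed and no gene is named. Alternatives changed the caller, span, chromosomes, overlap, widths, window size, scaling, pseudocount, coverage minimum, the replicate block and each library left out; leaving out chromosome 8 and the scaled MACS2 windows were added after seeing the data.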

Additional observations from a re-analysis of the deposited data

How the results depend on the processing

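The log2 ratio of proximal over rest stayed negative under all 13 alternatives (-1.004 to -0.79), and its mutant minus control difference under all 14 (-0.10 to -0.01). The mutant minus control difference in proximal median width stayed negative under all 11 (-292 to -24.8 bp). At -24.8 bp, with lists cut to the same number of widest peaks, the genotypes overlapped (exact permutation p = 1). That cut drops narrow peaks mainly from mutant 1, which raises its median by construction. The mutant minus control difference in MACS2 density, 0.637 kb per Mb, was -1.51 by bins and -0.0682 between 3 and 10 Mb, and ran from -1.33 (without mutant 1) to 2.60 with single libraries left out. The width difference between proximal ends and rest was 31 bp between 3 and 10 Mb. Control-only regions (138) numbered 88 between 3 and 10 Mb, and 185 to 318 with single libraries left out. Mutant-only regions (132, against 2747 in the rest) numbered 49 by bins (821 in the rest) and 60 between 3 and 10 Mb (2819). They numbered 59 from peaks of at least 1 kb (1257) and 68 with 50% of the region covered (1406). With single libraries left out they numbered 172 to 770 (3763 to 12617 in the rest), both highest without mutant 2. Fewer libraries make the rule easier to meet. The excess of the control-only share over the rest (6.84 percentage points) was -1.39 by bins, 15.3 between 3 and 10 Mb, 13.5 without chromosome 8, and 0.704 (without mutant 2) to 9.39 with single libraries left out. Lower windows (126 at unadjusted limma p under 0.05) numbered 50 with equal totals, 64 by MACS2, 72 by MACS2 with equal totals, 64 in 1-Mb windows, 192 with no coverage minimum, and 77 (without control 2) to 137 with single libraries left out. The number of windows tested changed with the setting. The 126 lower windows were 22.6% of those tested, against 27.6% of all windows. The share was 9.07% with equal totals (against 14.1%) and 9.55% by MACS2 (against 12.2%). By MACS2 with equal totals it was 10.7% (against 13.8%). In 1-Mb windows it was higher, 35.96% of 178 (against 41.3%), and with no coverage minimum 21.6% (against 25.6%). Higher windows (11, 1.97%, against 2.48%) numbered 40 with equal totals (7.26%, against 9.01%) and 45 by MACS2 (6.72%, against 8.95%). By MACS2 with equal totals they numbered 56 (8.35%, against 11.3%). There were 0 in 1-Mb windows (against 0.771%), 21 with no coverage minimum (2.36%, against 2.53%) and 5 of 291 in 500-kb windows (1.72%, against 1.43%). With single libraries left out, the median log2 difference over proximal windows ran from -0.168 (without mutant 1) to -0.109 (without mutant 2). Except where the construction shows it, the cause was not tested.

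Adjusted limma calls were 0 at 100 kb, among proximal windows and over all windows. Among proximal windows 17 were lower at 500 kb (5.84%, against 10.7% of all windows) and 31 at 1 Mb (17.4%, against 19.96%). With no coverage minimum 32 were lower (3.60%, against 4.80%) and 1 higher (0.112%, against 0.231%). With equal totals MACS2 gave 10 lower (1.49%, against 2.38%) and 17 higher (2.53%, against 3.63%). Same-numbered libraries deviated together with r = 0.0442 over 9183 windows. The labels do not pair them, so the numbers were not taken as pairs. With a replicate block the density difference was 0.637 kb per Mb and the log2 ratio difference was -0.04. With the block in limma, 89 windows were lower (16.0%, against 21.3% of all windows) and 9 higher (1.62%, against 2.19%). Adjusted calls with the block were 0 in the proximal ends and over all windows. The lists hold calls without counts, so the depth behind each call is unknown, and a missing call does not show a missing mark.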

Other observations

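Beyond chromosome 8, the end of chromosome 16 also held more peaks in mutant 1. Between 3 and 10 Mb it had 23.3 and 13.3 kb of peaks per Mb in the mutants and 12.5 and 13.1 kb per Mb in the controls, so that mutant 1 was 1.82 times and mutant 2 was 1.04 times the control mean. By bins the same stretch had 9.51 and 7.49 kb per Mb in the mutants and 9.57 and 9.29 kb per Mb in the controls. The block chr16:5000001-6000000 held 53.3 and 30.7 kb of peaks in the mutants and 22.3 and 23.7 kb in the controls, against 19.6 and 11.6 kb of bins in the mutants and 17 and 13.2 kb in the controls. The block chr16:10000001-11000000 had more of both in both mutants, with 54.997 and 32.8 kb of peaks in the mutants and 25.4 and 29.4 kb in the controls. Its bins covered 27.6 and 18.4 kb in the mutants and 16 and 17.6 kb in the controls. Chromosome 8 had the opposite pattern in its sparse stretch: chr8:6000001-7000000 held 0 and 0 kb of peaks in the mutants and 2.55 and 1.79 kb in the controls, while bins covered 0 and 0 kb in the mutants and 1.6 and 1 kb in the controls. These blocks were chosen after their values were seen.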
